A study of Mus musculus with 6 samples.

Results

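Activity-induced early response genes are the genes that neurons switch on within minutes of firing. Here 38 of them, chosen by name from a list of neuronal activity genes, were followed among 21755 protein-coding genes of the mouse. DNA double-strand break ends were counted in their gene bodies and within 2 kb on either side of their gene starts, with GENCODE gene models on the mm10 build. The ends were captured by BLISS, in which break ends in fixed nuclei of sorted neurons are repaired, tailed and ligated to adaptors, then amplified by in vitro transcription and sequenced. Every library came from forebrain neurons of CK-p25 mice, in which the Camk2a promoter directs a doxycycline-controlled activator to forebrain neurons, and p25, an activator of the kinase Cdk5, is made there once doxycycline is withheld.

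The 6 libraries formed 3 groups of 2, titled Step2, Step1 and Con. All 6 carried the same genotype label, CK-p25, and the same label of 2 weeks of induction, so the Con libraries were not labelled as a different strain or as uninduced. The labels give no age, do not say what sets the groups apart, and do not say whether the 2 libraries of a group came from different animals or from pools. The p-values below reflect only how these 6 libraries vary, and that variation could be technical. Because the assay reads DNA and not RNA, the neuronal label could not be checked against marker expression. In the bodies of marker genes, 3 neuronal lists with 12 genes lay between 0.667 and 1.32 times a uniform density in Step2, 0.982 and 1.22 in Step1, and 0.814 and 1.27 in Con. The 4 lists for astrocytes, oligodendrocytes, microglia and endothelial cells, with 15 genes, lay between 0.864 and 1.25 in Step2, 0.931 and 1.15 in Step1, and 0.845 and 1.15 in Con, so the ranges overlapped in every group.

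Early response genes need no new protein synthesis for their induction. Calcium entry activates kinases that phosphorylate factors already bound at their promoters, among them CREB at cAMP response elements and the serum response factor at CArG boxes. In cultured neurons, breaks made by topoisomerase IIb at the promoters of several of these genes, Fos, Npas4 and Egr1 among them, have been linked to their induction. The 38 genes include transcription factors of the FOS and JUN, EGR and KLF, and NR4A families, other nuclear regulators, signalling regulators, and synaptic and secreted effectors.

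The libraries differed in ways that accompanied the groups. Depth was 1526487 and 1480461 reads in Step2, 2403238 and 2043098 in Step1, and 2300995 and 2273508 in Con. A uniform spread of ends would place 2.28 and 2.22 reads in a 4 kb window around a gene start in Step2, 3.57 and 3.04 in Step1, and 3.45 and 3.41 in Con, so single genes rest on few reads. Median read length was 47 bases in Step2, 48 in Step1 and 49 in Con. Con replicate 2 stood apart, with 1.42 reads per distinct position against 1.19 to 1.29 in the other 5 libraries and the highest density at gene starts. The main pooled log2 values and the fold changes of the tested starts are given with and without it, and the part that depth, read length and repeated positions played in any difference was not tested. All values are relative to a library's own total and do not say how many breaks a cell had.

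Promoter sequence is shown first, because the ends at these genes were concentrated just upstream of a few starts. RefSeq promoter sequences (GRCm38.p6, 250 bases before to 50 bases after a start) were matched for 30 of the 38 genes. A gene was counted if any of its promoters held the letters on either strand. The CREB core site, TGACG or CGTCA, was present in 21 of the 30 (70.0%), against 23.1% of the 27025 genes in the table. The full cAMP response element, TGACGTCA, which contains the core site, was present in 4 of the 30, those of Btg2, Dusp1, Maff and Plk2, against 2.03% of genes. The GC box, GGGCGG or CCGCCC, was present in 23 of 30 (76.7%), against 38.2%, the letters TATAAA or TTTATA in 6 of 30 (20%), against 15.7%, the AP-1 site TGANTCA in 1 of 30 (3.33%), against 8.97%, and the CArG box by name in 2 of 30 (6.67%), against 1.81%. A match describes letters in the window only. The 27025 genes of the table are not the same set as the 21755 protein-coding genes. The CREB core site and the GC box both hold a CpG, and the part of base composition in these shares was not tested.

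Fos and Npas4 are the textbook activity genes with promoter breaks, and both hold CREB core sites, given in capitals. The Fos window is chr12:85473640-85473939 on the plus strand, and the Npas4 window is chr19:4989922-4990221 on the minus strand, inside the GENCODE gene model.
Fos: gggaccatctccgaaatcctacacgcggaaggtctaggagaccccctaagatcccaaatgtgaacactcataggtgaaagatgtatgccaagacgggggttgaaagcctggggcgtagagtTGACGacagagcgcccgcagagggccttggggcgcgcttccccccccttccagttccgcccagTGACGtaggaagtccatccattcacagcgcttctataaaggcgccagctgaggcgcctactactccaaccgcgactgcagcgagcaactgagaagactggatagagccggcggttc
Npas4: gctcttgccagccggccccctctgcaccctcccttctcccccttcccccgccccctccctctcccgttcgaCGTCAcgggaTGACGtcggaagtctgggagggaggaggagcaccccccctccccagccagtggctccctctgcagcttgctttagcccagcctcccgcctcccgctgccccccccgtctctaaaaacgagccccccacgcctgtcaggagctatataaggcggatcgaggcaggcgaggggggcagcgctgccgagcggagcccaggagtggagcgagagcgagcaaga

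Few ends fell in either window. The Fos window held 0 and 0 reads in Step2, 0 and 2 in Step1, and 0 and 3 in Con. These 5 reads, or 4 distinct ends, exceeded the 1.35 of a uniform density. They came from Step1 replicate 2 and Con replicate 2 alone, and an excess on so few reads was not tested. The Npas4 window held 0 reads in all 6 libraries, where a uniform density would give 1.35. A count of 0 allows up to 3 reads as a one-sided limit, or 2.23 times the uniform density, so an enrichment below that size was not excluded at this depth. Windows of the same size at Junb and Per1 held 107 and 94 reads over the 6 libraries.

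The starts of Junb, Per1, Gadd45b and Gadd45g, in contrast, held recurrent ends. In the next sequences the capitals mark bases at which ends mapped, at the same position and strand, in at least 2 libraries. The windows are chr8:84978699-84978998 on the minus strand for Junb, chr10:80929841-80930140 on the plus strand for Gadd45b and chr13:51846425-51846724 on the plus strand for Gadd45g, from RefSeq, and chr11:69094967-69095266 on the plus strand for Per1, read from the GRCm38.p6 genome at the GENCODE gene start.
Junb: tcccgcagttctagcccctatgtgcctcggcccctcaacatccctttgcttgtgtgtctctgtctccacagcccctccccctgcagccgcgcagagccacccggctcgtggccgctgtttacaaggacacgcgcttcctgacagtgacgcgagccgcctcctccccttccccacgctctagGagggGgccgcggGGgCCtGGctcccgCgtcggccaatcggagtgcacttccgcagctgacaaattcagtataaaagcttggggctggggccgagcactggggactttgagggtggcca
Per1: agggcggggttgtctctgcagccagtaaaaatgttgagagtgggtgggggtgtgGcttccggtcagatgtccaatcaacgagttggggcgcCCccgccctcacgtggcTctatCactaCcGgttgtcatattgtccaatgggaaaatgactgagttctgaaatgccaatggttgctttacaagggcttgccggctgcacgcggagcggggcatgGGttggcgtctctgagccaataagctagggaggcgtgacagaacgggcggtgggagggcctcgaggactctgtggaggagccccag
Gadd45b: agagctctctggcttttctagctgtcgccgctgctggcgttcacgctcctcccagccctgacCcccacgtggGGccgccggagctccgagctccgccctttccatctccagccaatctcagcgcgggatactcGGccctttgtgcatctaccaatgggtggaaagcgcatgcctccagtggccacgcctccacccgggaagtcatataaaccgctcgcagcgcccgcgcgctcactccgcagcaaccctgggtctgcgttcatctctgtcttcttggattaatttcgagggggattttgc
Gadd45g: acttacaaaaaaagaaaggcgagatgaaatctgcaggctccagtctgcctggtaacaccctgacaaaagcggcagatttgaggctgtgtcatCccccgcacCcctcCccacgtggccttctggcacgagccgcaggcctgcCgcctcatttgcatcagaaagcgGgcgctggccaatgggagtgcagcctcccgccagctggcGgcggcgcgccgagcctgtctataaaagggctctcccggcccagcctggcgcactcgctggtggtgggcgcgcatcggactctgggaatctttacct

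Counted from the gene start, the capitals at Junb lay from −99 to −72, those at Per1 from −196 to −35, those at Gadd45b from −170 to −98 and those at Gadd45g from −161 to −50. The Junb window held 7 and 4 reads in Step2, 9 and 1 in Step1, and 19 and 67 in Con, or 6 and 3 distinct ends in Step2, 6 and 1 in Step1, and 8 and 12 in Con. The Per1 window held 4 and 4 reads in Step2, 5 and 12 in Step1, and 26 and 43 in Con, or 4 and 3 distinct ends in Step2, 4 and 9 in Step1, and 16 and 18 in Con. Scaled to the library size, all reads put both Con libraries above the other 4 in both windows, and distinct ends did so at Per1. Distinct ends at Junb overlapped, with 4.91 and 2.58 CPM (ends scaled to the library size) in Step2, 2.98 and 0.597 in Step1, and 4.51 and 7.55 in Con. One Junb position, at −85, had 0 and 0 reads in Step2, 3 and 0 in Step1, and 4 and 30 in Con.

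Fosb, an AP-1 subunit whose truncated form accumulates with repeated stimulation, had its recurrent ends elsewhere. Its 6 capital bases lay in an exon, from 1373 to 1396 bases after the gene start, in chr7:19308556-19308755 on the minus strand of the GRCm38.p6 genome.
Fosb: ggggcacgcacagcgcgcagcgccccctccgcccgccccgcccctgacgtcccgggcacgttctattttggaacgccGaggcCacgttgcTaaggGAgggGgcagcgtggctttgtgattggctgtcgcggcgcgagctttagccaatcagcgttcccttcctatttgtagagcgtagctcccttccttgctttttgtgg

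These Fosb positions held 4 and 4 reads in Step2, 2 and 6 in Step1, and 13 and 8 in Con, 37 reads in all. The 500 bases before the Fosb start held 10 of the 76 reads within 2 kb of that start. Across all 38 starts, ends were mapped at 865 positions, of which 60 were found in at least 2 libraries and 17 in at least 3.

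The comparison of Step1 with Con, and then of Step2 with Con, asks whether break ends at these genes differ between the neuron groups. Pooled over the 38 genes, ends within 2 kb of the start were less dense in Step1 and in Step2 than in Con, and most of that difference lay in the 500 bases before the start. The 38 start windows held 112 and 143 reads in Step2, 178 and 169 in Step1, and 257 and 366 in Con. Relative to a uniform density these were 1.29 and 1.70 in Step2, 1.31 and 1.47 in Step1, and 1.96 and 2.82 in Con. Both Con libraries exceeded the other 4, while Step2 and Step1 overlapped. The starts of all protein-coding genes shared the order on a smaller scale, with 1.22 and 1.27 in Step2, 1.16 and 1.25 in Step1, and 1.29 and 1.62 in Con.

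On the log2 scale the pooled density at the 38 starts was −0.78 in Step1 relative to Con, −0.68 in Step2 relative to Con and 0.11 in Step2 relative to Step1, where all coding starts gave −0.27, −0.22 and 0.05. These are descriptions, with no test. Without Con replicate 2 the pooled values were −0.50 for Step1 and −0.39 for Step2 (all coding starts −0.10 and −0.05), and without Con replicate 1 they were −1.02 and −0.92 (all coding starts −0.43 and −0.38). Within 500 bases of the 38 starts the values were −1.26 and −1.28, or −0.64 and −0.67 without Con replicate 2, where all coding starts gave −0.62 and −0.61, or −0.28 and −0.26. Within sequencing runs 1 and 2 the values for the 2 kb windows of the 38 starts were −0.93 and −0.70 for Step1 and −0.76 and −0.63 for Step2. With 1 read per position and strand, the ratios to uniform were 1.40 and 1.79 in Step2, 1.35 and 1.44 in Step1, and 1.87 and 2.36 in Con, and the log2 values −0.60 and −0.40 relative to Con, or −0.42 and −0.23 without Con replicate 2. The share of start reads at a position that held more than 1 read was 16.1% and 23.1% in Step2, 17.4% and 26.6% in Step1, and 38.9% and 53.8% in Con.

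Much of the pooled difference came from 5 genes, Junb, Per1, Fosb, Gadd45b and Gadd45g, the members with the most start reads, which were singled out after their values were seen. With these left out, the other 33 starts had ratios of 1.14 and 1.49 in Step2, 1.11 and 1.20 in Step1, and 1.43 and 1.54 in Con. The Step2 and Con libraries then overlapped, the Step1 libraries stayed below both Con libraries, and the pooled log2 values were −0.37 for Step1 and −0.17 for Step2, or −0.32 and −0.12 without Con replicate 2. All coding starts gave −0.27 for Step1 and −0.22 for Step2, or −0.10 and −0.05 without Con replicate 2. The Step2 value of the other 33 starts was thus no lower than that of all coding starts when both Con libraries were kept. The pooled plot shows how the gap between the groups narrowed.

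**Figure D1:**
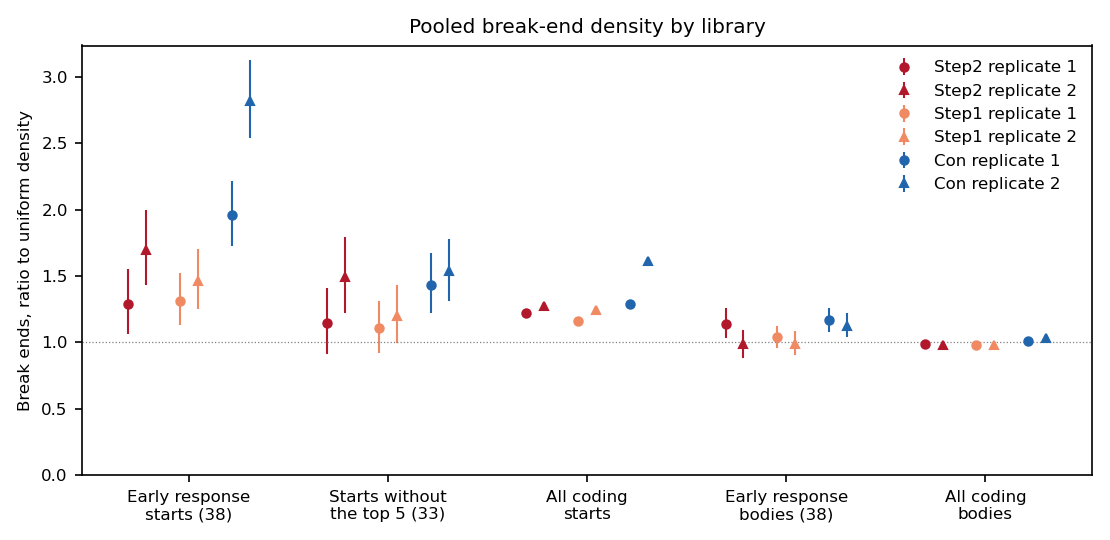
Pooled density of break ends as a ratio to a uniform spread (vertical axis), for each of the 6 libraries; the horizontal axis gives the gene set and region, points are libraries and bars are 95% exact Poisson intervals, which cover counting error only. The Con libraries reached 1.96 and 2.82 at the 38 early response starts and 1.43 and 1.54 once Junb, Per1, Fosb, Gadd45b and Gadd45g were left out, while gene bodies lay near 1 in every library.

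The position of the ends was narrow. In the 500 bases before the 38 starts, distinct ends lay at 2.31 and 4.97 times the uniform density in Step2, 3.08 and 3.54 in Step1, and 4.86 and 8.72 in Con. For all coding genes the same interval had 1.81 and 2.04 in Step2, 1.74 and 2.05 in Step1, and 2.31 and 3.50 in Con. Step2 replicate 2 overlapped the range of the Con libraries here, whereas both Step1 libraries were below them. Summed over the 38 genes, ends upstream of the start had no fixed orientation. Step2 had 35 and 51 reads on the gene's strand and 24 and 36 on the opposite strand. Step1 had 46 and 43 against 58 and 54, and Con 79 and 132 against 85 and 154. Single genes were less even. The recurrent Per1 ends in its window, 51 reads, were all on the gene's strand. The largest Gadd45b positions, with 12 and 10 reads, were also on the gene's strand. At Junb the largest, with 37 and 11 reads, were on the opposite strand. Gadd45g had recurrent ends on both strands.

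**Figure D2:**
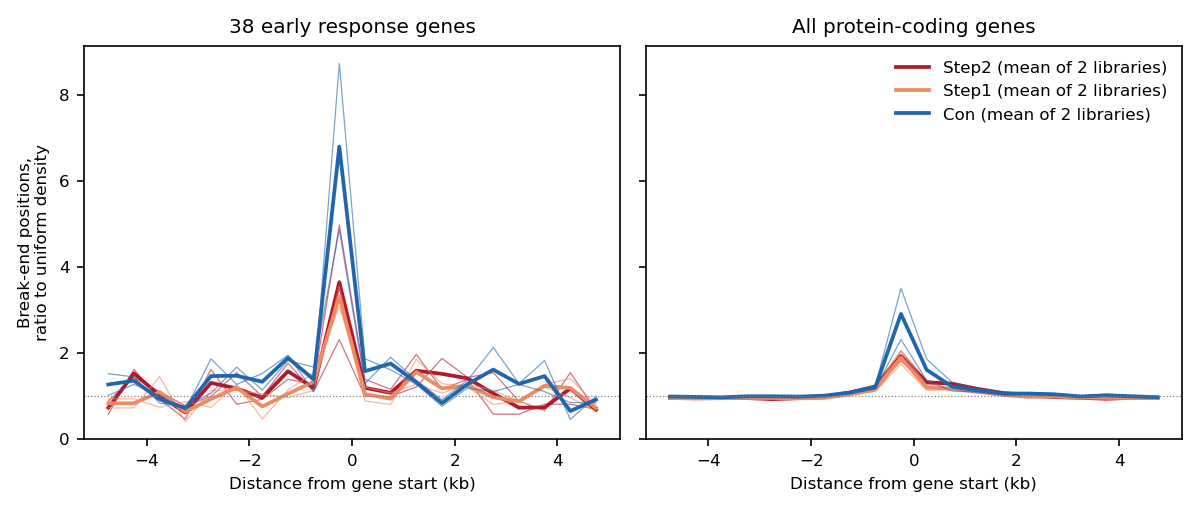
Density of distinct break-end positions, as a ratio to a uniform spread, against the distance from the gene start in kb, in bins of 500 bases, for the 38 early response genes (left) and all protein-coding genes (right); thin lines are libraries and thick lines the means of the 2 libraries of Step2, Step1 and Con. The bin just before the start reached 4.86 and 8.72 in the Con libraries of the 38 genes, and every other bin of these libraries was lower.

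The upstream signal was uneven among the genes. Of the 488 reads in the 500 bases before the 38 starts, 67.8% belonged to Junb, Per1, Gadd45b, Gadd45g and Ier5, and 3 genes had none. A count of at least 10 reads over the 6 libraries was reached by 11 of the 38 genes (28.9%), against 10.8% of all protein-coding genes, and the median was 4 reads against 2. The start windows of these genes were richer in G and C than usual, with a median of 54.1% against 48.1%, and had a median of 68.5 CpG dinucleotides in 1 kb against 41; the part of base composition in the upstream density was not tested.

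For a test, counts were fitted across all genes with limma, for the 1640 start windows holding 10 or more reads in 2 or more libraries, and adjusted by the Benjamini-Hochberg method. Called means an adjusted p under 0.05. Of the 38 starts 5 passed the count minimum, and 0 were called in Step1 against Con (0.122% of all tested starts were called), 0 in Step2 against Con (0.061%) and 0 in Step2 against Step1 (0.061%). At an unadjusted p under 0.05 the numbers were 3, 2 and 0 of 5, against 14.9%, 12.2% and 1.65% of all tested starts. With 1 read per position 0 of 5 were called in each comparison, where the share of all tested starts was 1.48%, 0.369% and 0.492%. A start that passes the minimum mainly through Con is bound to look lower elsewhere, so the 5 are given as single values. Over all 1640 tested starts the median log2 fold change was −0.76 in Step1 and −0.90 in Step2, each against Con.

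Without a count minimum all 38 starts can be placed. Both Step1 libraries were below both Con libraries at 16 of 38 starts (42.1%), against 21.4% of all protein-coding genes, and above both at 2, Ier2 and Maff, against 14.1% of all genes. With 1 read per position the lower count was 15 of 38, against 21.6%. In Step2, 7 of 38 starts lay below both Con libraries (18.4%, against 19.7% of all genes), and 2, Dusp1 and Dusp4, lay above both (15.6% of all genes); with 1 read per position 6 of 38 lay below, against 20%. The Step2 share was thus near that of all genes. The Dusp1 start window also covers the start of Ergic1. Between Step2 and Step1, 5 starts were lower in both Step2 libraries and 8 higher, against 16.6% and 16.3% of all genes. The comparisons against Con share the same 2 Con libraries.

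Among the FOS and JUN family, whose products pair into the AP-1 transcription factor, the start densities were 1.59 and 1.86 times uniform in Step2, 1.79 and 1.81 in Step1, and 2.50 and 4.58 in Con, with Con replicate 2 carried by Junb. Relative to Con the family's log2 values were −0.98 in Step1 and −1.04 in Step2, or −0.48 and −0.54 without Con replicate 2. Junb, a JUN partner that can restrain JUN, had 6.86 and 5.64 CPM (reads scaled to the library size) at its start in Step2, 6.14 and 1.55 in Step1, and 9.53 and 31.1 in Con. The 2 Con values differed more from each other than Con replicate 1 did from any Step2 or Step1 library. Its log2 fold change was −2.22 ± 0.70 (SE) in Step1 (adjusted p = 0.298) and −1.41 ± 0.63 in Step2 (adjusted p = 0.391), with limma, and neither was called. With 1 read per position these became −0.91 and −0.08, and without Con replicate 2 they were −1.31 and −0.57. Without Con replicate 1, which leaves only the library where Junb was high, they were −3.02 and −2.25. The Junb start ranked high among all genes over the 6 libraries, with 159 genes (0.731%) above it.

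Fosb had 3.43 and 3.53 CPM at its start in Step2, 4.82 and 6.70 in Step1, and 8.17 and 10.99 in Con. The Step2 values lay below the Step1 values, and these below the Con values. The log2 fold change was −0.71 ± 0.51 in Step1 (adjusted p = 0.376) and −1.34 ± 0.71 in Step2 (adjusted p = 0.438), with limma, or −0.51 and −1.13 without Con replicate 2. The Step1 value lay near the median of all tested starts, −0.76. Scaling the starts on themselves, by the trimmed mean of M values or by the median of ratios, moved all of them together, with medians of 0.02 in Step1 and 0.03 in Step2, and Fosb moved with them to 0.07 in Step1 under both. The other members had weaker starts. Fos, the founding member, had 3 and 1 reads in Step2, 2 and 6 in Step1, and 7 and 3 in Con, a ratio to uniform of 1.23 over all libraries (95% Poisson interval 0.768 to 1.86). Jun had 5 and 3 reads in Step2, 3 and 4 in Step1, and 6 and 12 in Con. Fosl2 and Atf3, a stress-induced factor, had ratios of 1.84 and 1.78, and Jund and Maff 1.17 and 0.557.

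EGR zinc-finger factors and Klf4 had start densities close to uniform, at 0.789 and 1.08 in Step2, 0.954 and 1.12 in Step1, and 1.34 and 1.47 in Con. Egr1, an activity marker in many brain regions, had 2 and 3 reads at its start in Step2, 4 and 5 in Step1, and 2 and 7 in Con, and its groups overlapped. Klf4 had 1 and 5 reads in Step2, 1 and 3 in Step1, and 12 and 4 in Con, and Egr2, Egr3 and Egr4 had 19, 21 and 14 reads over all libraries. Egr4 had no read in either Step2 library or in Con replicate 1. The NR4A orphan nuclear receptors, also read as activity markers, had 0.877 and 1.504 times uniform in Step2, 0.841 and 0.988 in Step1, and 1.35 and 1.47 in Con. Nr4a3 had 3 and 5 reads in Step2, 6 and 7 in Step1, and 7 and 6 in Con, or 1.89 times uniform over all libraries, and Nr4a1 and Nr4a2 had 1.00 and 0.613 times uniform. These values are for annotated gene starts, and the principal starts of Nr4a1 and Nr4a2 lie 12577 and 8965 bases away. At principal starts the family had 1.169 and 1.805 times uniform in Step2, 1.589 and 1.537 in Step1, and 1.354 and 1.465 in Con. Its log2 values relative to Con were 0.15 in Step1 and 0.08 in Step2, against −0.62 and −0.24 at annotated starts. With 1 read per position they were −0.14 and −0.21 at principal starts.

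The other nuclear regulators had 1.07 and 1.96 times uniform at their starts in Step2, 1.62 and 2.05 in Step1, and 2.42 and 4.72 in Con, with log2 values relative to Con of −0.96 in Step1 and −1.24 in Step2, or −0.40 and −0.68 without Con replicate 2. Per1, a core clock repressor that light and activity induce through CREB, had 2.74 and 5.64 CPM in Step2, 3.51 and 7.21 in Step1, and 13.6 and 22.4 in Con. Both Con libraries were above the other 4 by more than the spread within any group except Con itself. The log2 fold change was −1.76 ± 0.54 in Step1 (adjusted p = 0.280) and −2.06 ± 0.69 in Step2 (adjusted p = 0.285), with limma, and neither was called. The values were −1.43 and −1.47 with 1 read per position, −1.42 and −1.70 without Con replicate 2, and −0.97 and −1.06 under the trimmed mean of M values. Without Con replicate 1 the values were −2.15 and −2.42. The ends belonged to the gene start of the annotation, since the start of the principal transcript, 3731 bases downstream, had 2 and 4 reads in Step2, 2 and 6 in Step1, and 7 and 5 in Con.

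Gadd45b and Gadd45g encode stress sensors linked to DNA demethylation in neurons. Gadd45b had 3.43 and 4.94 CPM at its start in Step2, 4.38 and 3.61 in Step1, and 6.81 and 13.3 in Con, and the Con libraries did not overlap the others. Its log2 fold change was −1.20 ± 0.55 in Step1 (adjusted p = 0.321) and −1.13 ± 0.64 in Step2 (adjusted p = 0.438), with limma, and neither was called. Without Con replicate 1 the Step1 value was −1.66, and without Con replicate 2 the values were −0.72 in Step1 and −0.66 in Step2. Gadd45g had 1.37 and 4.23 CPM in Step2, 2.19 and 6.18 in Step1, and 4.54 and 10.5 in Con, and Step1 overlapped Con. Its log2 fold changes of −0.93 ± 0.61 and −1.37 ± 1.04 in Step1 and in Step2 were not called (adjusted p = 0.354 and 0.457, limma), and without Con replicate 2 they were −0.41 and −0.78.

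Crem, a CREB family member with an activity-induced repressor form, had 2.06 and 3.53 CPM at its start in Step2, 2.63 and 3.09 in Step1, and 3.18 and 6.87 in Con. Ier5 had 0.686 and 2.12 in Step2, 3.95 and 2.58 in Step1, and 1.36 and 7.33 in Con, so its 2 Con libraries enclosed both Step1 libraries and Step2 replicate 2. Npas4, a neuron-specific factor induced by depolarization, had 2 and 4 reads in Step2, 3 and 5 in Step1, and 5 and 1 in Con. That is 1.11 times uniform over all libraries (0.680 to 1.72), with no order among the groups. Ier2, Ier3 and Btg2, the last an antiproliferative transcription cofactor, had 1.11, 0.835 and 0.613 times uniform.

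Signalling regulators departed from this order. Their starts had 1.63 and 2.19 times uniform in Step2, 1.20 and 1.18 in Step1, and 1.70 and 1.30 in Con, so Step2 overlapped Con and both Step1 libraries were lowest. Dusp4, a nuclear phosphatase of MAP kinases, had 4.11 and 4.23 CPM in Step2, 3.51 and 1.55 in Step1, and 1.36 and 2.29 in Con. Plk2, a kinase of synaptic homeostasis, had 5.48 and 2.82 in Step2, 3.07 and 4.64 in Step1, and 3.18 and 1.83 in Con, and its groups overlapped. Rgs2, which limits G-protein signalling, had 1.37 and 4.94 in Step2, 1.32 and 0 in Step1, and 5.45 and 3.66 in Con. Dusp6 had 3 and 2 reads in Step2, 2 and 2 in Step1, and 10 and 6 in Con, whereas Dusp1, Dusp5 and Sik1 had 22, 13 and 25 reads over all libraries. The annotated Dusp1 start lies next to the start of Ergic1 and 53609 bases from that of its principal transcript, which had 2 and 0 reads in Step2, 5 and 4 in Step1, and 3 and 3 in Con.

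Synaptic and secreted effectors had start densities of 1.46 and 1.13 times uniform in Step2, 0.888 and 0.988 in Step1, and 1.69 and 1.22 in Con. Arc, which drives glutamate receptor endocytosis, had 5 and 3 reads in Step2, 5 and 1 in Step1, and 6 and 9 in Con. Inhba, the activin subunit, had 1 and 5 reads in Step2, 1 and 2 in Step1, and 6 and 8 in Con. Bdnf, a neurotrophin, had 3 and 0 reads in Step2, 1 and 2 in Step1, and 3 and 0 in Con, a ratio of 0.501 (0.229 to 0.951), the lowest of the 38 by summed reads. By mean CPM over the libraries Maff was slightly lower, at 0.806 against 0.814 for Bdnf. Homer1, Nptx2 and Ptgs2 had ratios of 1.39, 1.34 and 1.23. Over all 38 starts, 29 ranked above the median gene.

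**Figure D3:**
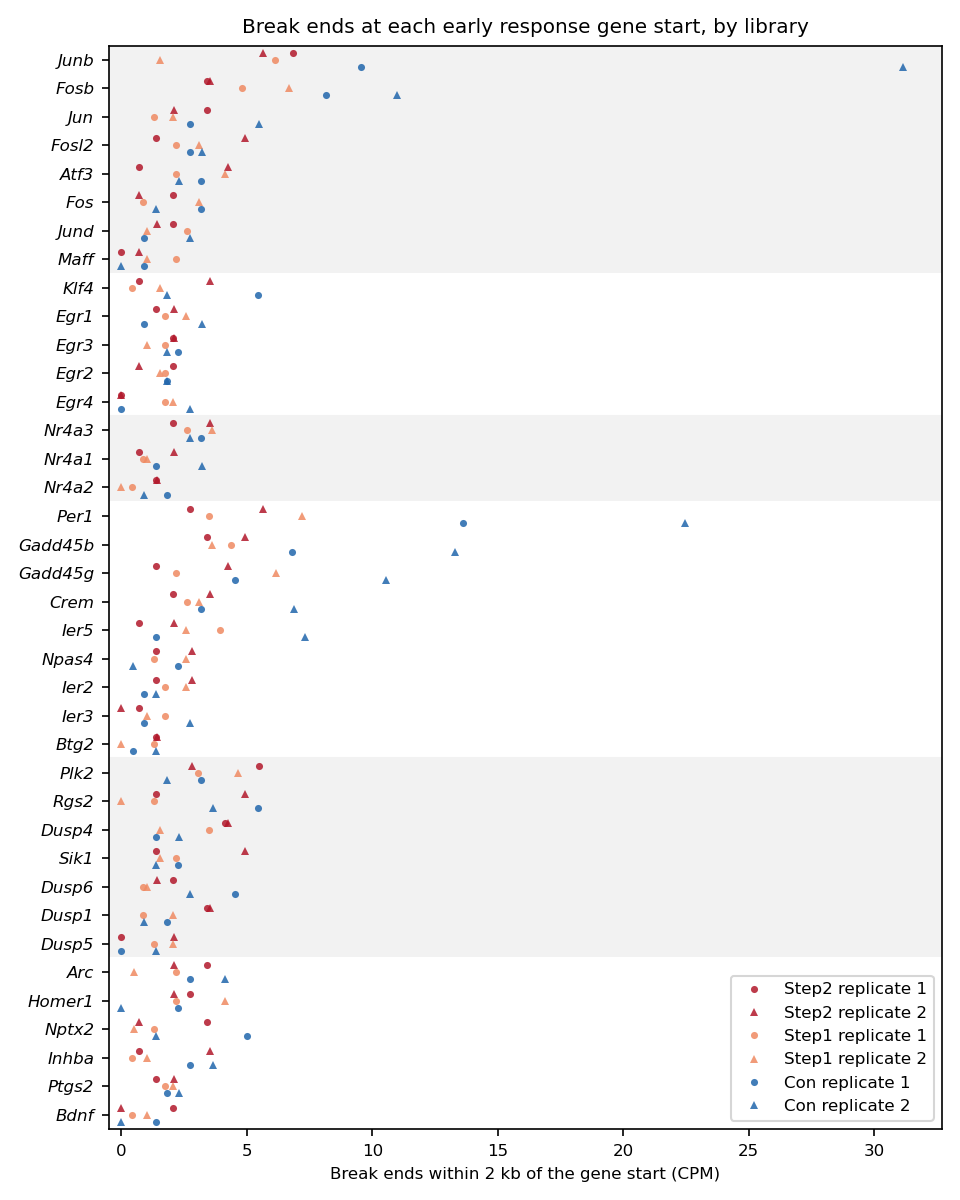
Break ends within 2 kb of each of the 38 gene starts, in CPM (reads scaled to the library size; horizontal axis), by gene and grouped by role (vertical axis, shaded bands), with 1 symbol per library of Step2, Step1 and Con. Con replicate 2 reached 31.1 at Junb and 22.4 at Per1, and most other genes lay under 5 in every library.

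Gene bodies gave a different picture from starts. Pooled over the 38 bodies, ends lay at 1.14 and 0.986 times uniform in Step2, 1.04 and 0.989 in Step1, and 1.17 and 1.13 in Con, from 404 and 340 reads in Step2, 576 and 467 in Step1, and 625 and 598 in Con. Both Step1 libraries were below both Con libraries, and Step2 overlapped Con. The log2 values were −0.18 in Step1 and −0.11 in Step2 relative to Con and 0.07 between Step2 and Step1, where all coding gene bodies had −0.06, −0.06 and 0.00. Early response genes are short, with a median of 6338 bases against 17414, and 22 of the 38 are under 10 kb. Exons of the 38 genes had 1.19 and 1.15 times uniform in Step2, 1.18 and 1.11 in Step1, and 1.19 and 1.19 in Con, and introns 1.13 and 0.936 in Step2, 0.994 and 0.951 in Step1, and 1.16 and 1.11 in Con.

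Of the 38 bodies 16 passed the count minimum, and limma called 0 in Step1 against Con (0.123% of 13811 tested bodies were called), 0 in Step2 against Con (0.0941%) and 0 in Step2 against Step1 (0.0434%). At an unadjusted p under 0.05 there were 2, 1 and 0 of 16, against 7.08%, 7.77% and 3.42% of all tested bodies. With 1 read per position, 14 passed and 0 were called, where 0.118%, 0.126% and 0.0315% of all tested bodies were. Without a count minimum, 10 of 38 bodies were lower in both Step1 than in both Con libraries and 5 higher, against 18.9% and 15.3% of all genes. In Step2 against Con 9 were lower and 5 higher, against 18.7% and 15.3%, and in Step2 against Step1 7 were lower and 6 higher, against 16.8% and 15.8%.

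Homer1, a scaffold of metabotropic glutamate receptors whose short form is activity-induced, was the body with the most reads. It had 50.7 and 37.4 CPM in Step2, 50.4 and 43.8 in Step1, and 61.3 and 56.3 in Con. All 4 other values lay below both Con values. Its log2 fold change was −0.42 ± 0.20 in Step2 (adjusted p = 0.622) and −0.31 ± 0.17 in Step1 (adjusted p = 0.736), with limma. The Step1 value was 0.033 in sequencing run 1 and −0.59 in run 2, and the Step2 values were −0.36 and −0.45. Homer1 also spans 105495 bases, the longest of the 38 bodies, and its density over all libraries was 1.24 times uniform (1.14 to 1.34).

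Inhba had 6.86 and 7.76 CPM in its body in Step2, 7.45 and 6.18 in Step1, and 11.8 and 13.3 in Con, with log2 fold changes of −0.74 ± 0.44 and −0.85 ± 0.39 in Step2 and in Step1 (adjusted p = 0.723 and 0.682, limma). The groups did not overlap with Con, yet neither value was called. The Per1 body had 3.43 and 6.35 in Step2, 3.07 and 4.12 in Step1, and 7.71 and 8.70 in Con (log2 fold change −0.75 ± 0.58 in Step2 and −1.17 ± 0.55 in Step1). The Fosb body, the densest per base at 2.42 times uniform (1.92 to 3.02), had 3.43 and 4.94 in Step2, 5.70 and 7.21 in Step1, and 9.53 and 9.16 in Con (log2 fold change −1.10 ± 0.60 in Step2 and −0.54 ± 0.42 in Step1). The start window covers the first 2 kb of this body of 7356 bases, so the body and start values of Fosb share reads.

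Nr4a1 ran the other way, with 5.48 and 11.3 CPM in its body in Step2, 8.33 and 7.21 in Step1, and 4.54 and 4.12 in Con. Both Con libraries were lowest, and the log2 fold changes of 0.85 ± 0.55 in Step2 and 0.82 ± 0.51 in Step1 were not called (adjusted p = 0.744 and 0.758, limma). Maff had 0.87 ± 0.77 in Step2 and 0.84 ± 0.70 in Step1. The remaining bodies tested, those of Atf3, Bdnf, Crem, Dusp1, Dusp4, Dusp5, Fosl2, Nr4a2, Nr4a3 and Sik1, had log2 fold changes from −0.36 to 0.34 in Step2 and from −0.87 to 0.53 in Step1. The Dusp1 gene model of 56539 bases overlaps Ergic1. Its annotated start lies 53609 bases from that of the principal transcript, so most of the counted stretch lies outside that transcript. The other 22 bodies held 2 to 39 reads over all libraries and were not tested. Of these Junb had 15 and 3 reads in Step2, 4 and 2 in Step1, and 7 and 1 in Con, and its gene model overlaps Prdx2.

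**Figure D4:**
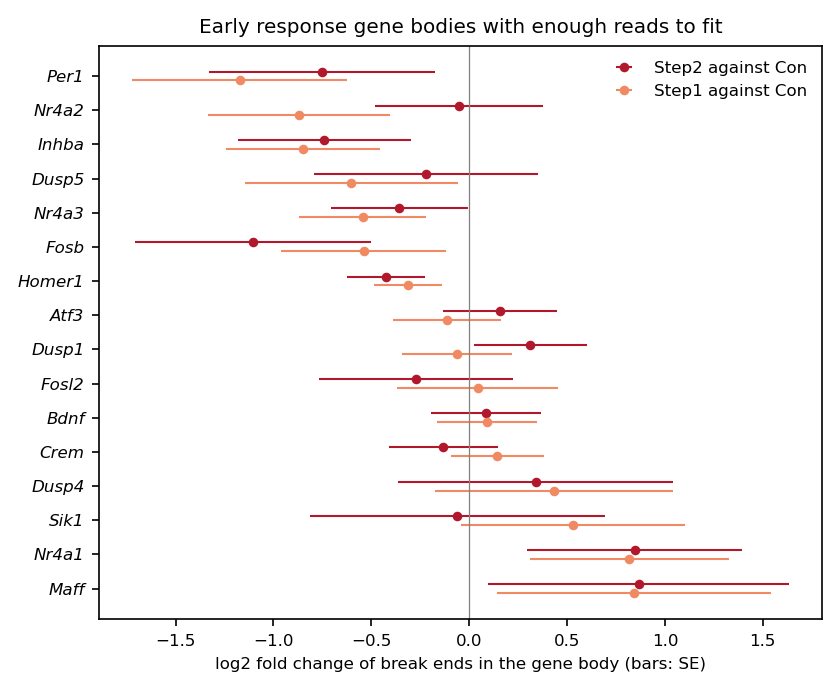
log2 fold change of break ends in the gene body (horizontal axis) with standard errors from limma, for the 16 early response genes with enough reads, in Step2 against Con and in Step1 against Con. Values ran from −1.17 for Per1 in Step1 to 0.87 for Maff in Step2, and none was called.

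Other genes of the pathway gave no call. Among 35 upstream regulators, the factors, kinases and channels that switch early response genes on, 32 bodies were tested and 0 were called in either direction in any of the 3 comparisons. Ppp3ca, the calcineurin catalytic subunit, had 119 and 107 CPM in its body in Step2, 134 and 115 in Step1, and 139 and 162 in Con (log2 fold change −0.41 ± 0.13 in Step2, adjusted p = 0.369, and −0.27 ± 0.11 in Step1, adjusted p = 0.626, limma). Cacna1c, an L-type calcium channel, had log2 fold changes of −0.14 ± 0.09 in Step2 and −0.10 ± 0.08 in Step1, and Cacna1d, another, −0.05 ± 0.10 and −0.01 ± 0.09. Of the 32 bodies 23 had a log2 fold change below 0 in Step2 and 18 in Step1, against 54.0% and 54.7% of all tested bodies. Of 10 genes of topoisomerase break formation and repair 9 bodies were tested and 0 called, and 6 had a log2 fold change below 0 in Step2 and 6 in Step1. Top2b itself had 30.9 and 28.9 CPM in Step2, 33.8 and 36.1 in Step1, and 37.2 and 38.9 in Con. Prkdc, with more reads, had log2 fold changes of 0.21 ± 0.16 in Step2 and 0.04 ± 0.15 in Step1. Of 15 late-response genes 7 bodies were tested and 0 called.

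The starts of these lists set the members beside related genes. Upstream regulators had 1.63 and 1.62 times uniform in Step2, 1.74 and 1.43 in Step1, and 2.25 and 2.16 in Con. The topoisomerase and repair list had 1.71 and 1.85 in Step2, 1.60 and 1.65 in Step1, and 2.18 and 2.72 in Con. Late-response genes, which need the early proteins for their induction, had 0.965 and 1.32 in Step2, 0.841 and 0.900 in Step1, and 1.16 and 1.25 in Con. The 38 early response starts were less dense than both the upstream and the repair lists in replicate 1 of each group, and denser than both in Con replicate 2 alone. Of all reads at protein-coding starts, the 38 took 0.185% and 0.234% in Step2, 0.198% and 0.206% in Step1, and 0.267% and 0.305% in Con, where their share of the bases is 0.175%. On this scale, which divides by the reads within 2 kb of all coding starts, the log2 value was −0.50 in Step1 and −0.45 in Step2, each relative to Con, or −0.40 and −0.35 without Con replicate 2. All coding starts themselves had −0.62 in Step1 and −0.61 in Step2 within 500 bases, against −0.27 and −0.22 within 2 kb. Whether this scale removes the whole change common to all starts was not tested.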

How the data were processed

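The series notes and labels say that PCR duplicates were taken out by their molecular identifiers, and per the submitters' processing notes the tools were Bowtie2, SAMtools and bedtools and the build mm10. Tool versions were not given in the sources used here. In the deposited files a line is 1 aligned read, and the only value on it, the mapping quality score that the authors' aligner gave, ran from 11 to 42. Reads were counted at their 5′ end, with all reads or with 1 per position and strand, for GENCODE vM21 genes of chromosomes 1 to 19 and X. Library size left out 26 piled-up windows of 10 kb, in which no member start lay. A uniform density is the library size spread over 2559136733 bases.

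Features holding 10 or more reads in 2 or more libraries entered 1 fit of all 6 libraries, with 1 mean per group, in limma 3.58.1 (voom; R 4.3.3). Tests were two-sided, and p-values were adjusted by Benjamini-Hochberg over all bodies or all starts tested. The files hold reads as lines, which were counted per feature for this fit, and edgeR and DESeq2 were not used. The procedure was tested on simulated data. These used the same fixed spread for every feature, not matched to these libraries, so they give no error rate for the results here. Poisson intervals are exact, at 95%, and cover counting error only. Python 3.11.15 (numpy 2.4.6; pandas 2.3.3; SciPy 1.17.1) did the counting and matplotlib 3.10.9 the plots.

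The members, the lists of other genes, the tests and the alternatives were chosen with earlier results of these data known. Named members are those called, those past the count minimum, and the 10 with the most distinct ends at the start; others are given by role, and up to 3 genes per list. Where a library was left out, the single library left in its group takes its spread from the rest of the fit. Alternatives were other scalings, count minimums, window sizes, mapping qualities, single runs, limma-trend, 2-group fits and a replicate block. Whether replicate numbers pair the libraries was checked in gene bodies only. Same-numbered deviations correlated there across 13811 genes at 0.0327 for Step1 and Con, 0.005 for Step2 and Con, and −0.0051 for Step2 and Step1. Counting error at single genes limits that check, and it was not run at starts. Pooled over the 38 starts, replicate 2 was denser than replicate 1 in each group, with 1.29 and 1.70 times uniform in Step2, 1.31 and 1.47 in Step1, and 1.96 and 2.82 in Con. Pairing at starts was thus not settled.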

Additional observations from a re-analysis of the deposited data

How the results depend on the processing

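Counts of called features over all genes are given in the order Step1 against Con, Step2 against Con and Step2 against Step1. They were 17, 13 and 6 bodies and 2, 1 and 1 starts. They became 15, 16 and 4 bodies and 12, 3 and 4 starts with 1 read per position, 18, 12 and 2 bodies and 1, 1 and 0 starts for reads of mapping quality 30 or more, 4, 3 and 6 bodies and 3, 1 and 0 starts in sequencing run 1, and 13, 15 and 5 bodies and 11, 26 and 1 starts in run 2. Without piled-up windows they were 35, 31 and 1 bodies and 0, 0 and 0 starts, with the trimmed mean of M values 10, 9 and 3 bodies and 1, 13 and 2 starts, and with the median of ratios 9, 11 and 6 bodies and 1, 14 and 2 starts. No count filter gave 10, 5 and 3 bodies and 2, 1 and 0 starts, a minimum of 20 reads 9, 8 and 4 bodies and 11, 27 and 2 starts, limma-trend 13, 45 and 10 bodies and 1, 4 and 0 starts, and the 2-group fit 6, 7 and 7 bodies and 1, 1 and 2 starts. Starts numbered 1, 1 and 0 within 1 kb, 0, 0 and 0 within 500 bases and 2, 1 and 1 at principal transcript starts, an alternative chosen after seeing the data. Leaving out each library gave 2 to 148, 1 to 106 and 2 to 8 bodies and 1 to 216, 1 to 146 and 0 to 6 starts. The cause of these moves was not tested.

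The replicate block gave 38, 43 and 11 bodies and 38, 49 and 5 starts. The pairing check in gene bodies does not bear the block out, and no such check was run at starts. Under the block 1 member was called, the Per1 start in Step1 against Con (−1.72, adjusted p = 0.0383, limma). No other member was called in a fit that kept both libraries of each group compared. For members, fits that left a single library in a group are given by effect size only. The Homer1 body in Step1 turned to 0.033 in run 1, and the Fosb start in Step1 to 0.068 with the trimmed mean of M values and 0.070 with the median of ratios, scalings that moved the median of all tested starts from −0.76 to 0.02 alike. Pooled starts moved to −1.26 in Step1 and −1.28 in Step2 within 500 bases (−0.64 and −0.67 without Con replicate 2), and to −0.37 in Step1 and −0.17 in Step2, each relative to Con, without the 5 members with the most reads (−0.32 and −0.12 without Con replicate 2 as well), choices made after seeing the data except the window itself. All coding starts gave −0.62 in Step1 and −0.61 in Step2 within 500 bases, and −0.27 and −0.22 within 2 kb.

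With 2.22 to 3.57 reads expected in a start window, depth limits every statement on a single gene: 33 of 38 starts and 22 of 38 bodies fell under the count minimum chosen here.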
